A study of Mus musculus with 3 samples.

Results

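Drd1 neurons of the mouse nucleus accumbens were divided by their count of prodynorphin (Pdyn) transcripts, and the neurons with 3 or more Pdyn molecules (Pdyn-high) were compared with those with none (Pdyn-negative). A cell entered when it had at least 300 detected genes, at most 20% of its unique molecular identifiers (UMIs, each standing for 1 captured RNA molecule) from mitochondrial genes, between 2000 and 8000 UMIs, at least 1 Drd1 UMI, and no UMI of Adora2a, Gpr6, Slc17a7, Mog or Aqp4. Of the 11625 cells of the series, 10291 met the first pair of limits, 2161 of these held Drd1, 1597 of those lacked the other 5 genes, and 889 lay in the UMI window. The Pdyn-high arm held 262 cells and the Pdyn-negative arm 263 cells, 525 in all, while 364 cells with 1 or 2 Pdyn UMIs formed an intermediate class. The cells were thus chosen by their measured UMIs of Pdyn and the other 6 genes of the rule, which are given below only as a description.

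The series held 3 single-cell RNA samples of 1 group, all from Thy1::ChR2 mice, a line in which the Thy1 promoter drives the light-gated channel channelrhodopsin-2 in subsets of projection neurons. In every sample the nucleus accumbens was labelled with FLiCRE, a construct that records calcium elevation during light, while channelrhodopsin was stimulated, and tissue was taken from 400 um coronal sections. No unstimulated or unlabelled group was analysed here, so all cells of both arms come from stimulated, construct-injected tissue. The labels do not tie the 3 libraries of the matrix, told apart by a barcode suffix, to numbered samples, nor say whether they came from separate animals, so libraries are the only replicates and p-values cover at most the spread between them, which may be technical.

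Dynorphin is the endogenous ligand of the kappa opioid receptor, and in the striatum its precursor gene is expressed mainly by the direct-pathway spiny neurons that carry the D1 dopamine receptor and also make substance P from Tac1. Dopamine acting on that receptor raises cyclic AMP, and Pdyn and Tac1 are both known as targets of this pathway. Within the D1 class, neurons of the patch (striosome) compartment, of the medial shell and of a group marked by Tshz1 and Pcdh8 have been described as distinct, with different peptide content.

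Library 1 held 11 Pdyn-negative cells, 3 intermediate cells and 0 Pdyn-high cells, so every comparison of the arms rests on libraries 2 and 3. Library 2 gave 198 Pdyn-high and 205 Pdyn-negative cells, and library 3 gave 64 and 47. Pdyn-high cells were deeper: their median was 3529.5 UMIs against 2797 in library 2, and 4439.5 against 2795 in library 3. The median share of mitochondrial UMIs was 7.05% against 6.50% in library 2 and 5.72% against 7.61% in library 3. The summed depth of the 4 arm sums ran from 154024 to 744361 UMIs. No arm cell of library 2 had the barcode sequence of an arm cell of library 3, and 4 barcode sequences were shared between an arm cell of 1 of these libraries and any cell of the other.

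The gate was checked against genes that define spiny neurons. Gad2, which makes the transmitter GABA, stood at 933 CPM (UMIs of the gene per 1000000 UMIs of the sum) in Pdyn-negative and 1243 CPM in Pdyn-high cells of library 2, and at 1247 and 1310.2 CPM in library 3. Tac1 stood at 2308 CPM or more in the library 2 arms and 1461 CPM or more in the library 3 arms, against 309 and 138 CPM in the cells of the same libraries that held Adora2a, a marker of the indirect pathway. Penk, the enkephalin precursor of that pathway, stood at 6406 and 7576 CPM in the Adora2a cells and at 2402 CPM or less in both arms. Drd2 and Chrm4 could not serve as markers, because Drd2 reached only 2.94 and 0 CPM in the Adora2a cells and Chrm4 had 0 UMIs there and in both arms.

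Pdyn itself, by construction, had 0 UMIs in one arm, and in the other it summed to 911 UMIs in library 2 and 288 UMIs in library 3, with a highest cell of 16 and 9 UMIs. Just inside the threshold lay 67 cells with 3 Pdyn UMIs in library 2 and 19 in library 3, and just outside it 123 and 30 cells with 2. Pdyn UMIs were also found in cells outside the gate. These were grouped, in the same UMI window, by at least 1 UMI of Adora2a without Drd1, or of Mog, Slc17a7 or Aqp4. Cells with Drd1 UMIs were not left out of the Mog, Slc17a7 and Aqp4 groups, so these are not pure cell types. At least 1 Pdyn UMI was found in 70.8% (95% exact binomial interval 67.3% to 74.1%) of the gated Drd1 cells of library 2. The shares were 12.9% in its Adora2a cells and 18.2% in its Mog cells. Median depths of the 3 groups were 3117, 3377 and 3032 UMIs. In library 3 the shares were 72.8% (65.6% to 79.3%), 3.53% and 4.23%, at median depths of 3470, 3450.5 and 4312.5 UMIs. At 3 or more UMIs the shares were 28.2% and 37.0% in the Drd1 gate, 0.913% and 0.588% in the Adora2a cells, and 4.16% and 0.352% in the Mog cells. Other classes held more: in library 3, 20.6% of the Slc17a7 cells and 8.79% of the Aqp4 cells had at least 1 Pdyn UMI and 4.90% and 2.20% had 3 or more, at median depths of 4755.5 and 4063.5 UMIs. In library 2 those classes had at least 1 Pdyn UMI in 19.9% and 19.1% and 3 or more in 4.10% and 2.96%. These intervals cover counting error only, and a cell with 0 Pdyn UMIs at these depths is not shown to lack the transcript.

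Pdyn-high neurons had more of the tachykinin precursor Tac1, of neurotensin (Nts), of the signalling genes Prkcb, Rgs4 and Gpr101 and of the mitochondrial import gene Tomm70a than Pdyn-negative neurons. They had less enkephalin precursor (Penk) and less Cxcl14, Necab1, Ntng1, Elavl4, Atp2b4, Slc24a2, Fam163b and Gnas. In the RefSeq annotation of GRCm38.p6, the assembly also called mm10, the main genes are Tac1 at chr6:7555061-7562978, Nts at chr10:102481756-102490418, Prkcb at chr7:122289104-122634402, Rgs4 at chr1:169741477-169747642, Gpr101 at chrX:57496668-57503757, Penk at chr4:4133536-4138815, Cxcl14 at chr13:56288643-56296811 and Necab1 at chr4:14952245-15149804. Of 7277 genes tested with edgeR's quasi-likelihood test on the summed counts, with library as a block, 35 passed an adjusted p of 0.05 (0.481% of the genes tested), 7 higher (0.0962%) and 28 lower (0.385%) in Pdyn-high cells. At an unadjusted p under 0.05 there were 222 higher (3.05%) and 262 lower genes (3.6%). With 4 sums and 1 residual degree of freedom the fit gave 99.99% of genes 1 shared spread, so these p-values rest mostly on counting error. DESeq2 on the same sums passed only Sst (26 at an unadjusted p under 0.05), and a fit without the library block passed 0 genes in edgeR, with 93 at an unadjusted p under 0.05.

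Tac1 encodes the precursor of substance P and neurokinin A, the peptides released with dynorphin by direct-pathway neurons. It stood at 2308 CPM in Pdyn-negative and 3083 CPM in Pdyn-high cells of library 2, and at 1461 and 2505 CPM in library 3. Both Pdyn-high sums lay above both Pdyn-negative sums. Such separation of so few sums is a description only. It was also seen in genes that did not pass, such as Wfs1 and Homer1, and its share over all genes tested was not counted. The fit gave 0.56 on the log2 scale (SE 0.120), with an adjusted p of 0.00147 in edgeR.

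Neurotensin (Nts), a peptide of a subset of accumbens neurons, had the smallest adjusted p of the neuronal genes that rose. It stood at 161 and 497 CPM in library 2 and at 39.0 and 55.9 CPM in library 3, a log2 fold change of 1.53 with an SE of 0.208 and an adjusted p from edgeR of 3.14e-10. The level differed more between libraries than between arms, and the rise was mostly that of library 2: on the CPM scale with 1 CPM added it was 1.62 (log2) there and 0.51 in library 3. The library 3 Pdyn-negative sum held 6 Nts UMIs, 5 of them in 1 cell.

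Prkcb encodes the calcium-activated kinase protein kinase C beta. It stood at 926 and 1389 CPM in library 2 and at 844 and 1404 CPM in library 3, so that the arms did not overlap and the libraries nearly coincided (log2 fold change 0.63 with an SE of 0.128 and an adjusted p from edgeR of 0.000418). Rgs4, which shortens signalling by Gi- and Gq-coupled receptors, stood at 483 and 819 CPM in library 2 and at 474 and 576 CPM in library 3 (log2 fold change 0.59 with an SE of 0.145 and an adjusted p from edgeR of 0.0123). Its Pdyn-negative sums were nearly equal, and its rise was larger in library 2.

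Gpr101, an orphan G-protein-coupled receptor, was the neuronal gene with the largest rise. It stood at 28.4 and 94.0 CPM in library 2 and at 26.0 and 62.9 CPM in library 3 (log2 fold change 1.62 with an SE of 0.329 and an adjusted p from edgeR of 0.000418). These are low levels, from 4 UMIs in the library 3 Pdyn-negative sum to 70 in the library 2 Pdyn-high sum. Tomm70a, a receptor for protein import at the outer mitochondrial membrane, stood at 448 and 708 CPM in library 2 and at 441 and 597 CPM in library 3 (log2 fold change 0.57 with an SE of 0.147 and an adjusted p from edgeR of 0.0230). The seventh higher gene was Cd74, the invariant chain of MHC class II molecules (2.76, edgeR adjusted p = 2.88e-15). Of its 146 Pdyn-high UMIs in library 2, 120 came from 1 cell, and library 3 had 13.0 and 17.5 CPM.

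**Figure D1:**
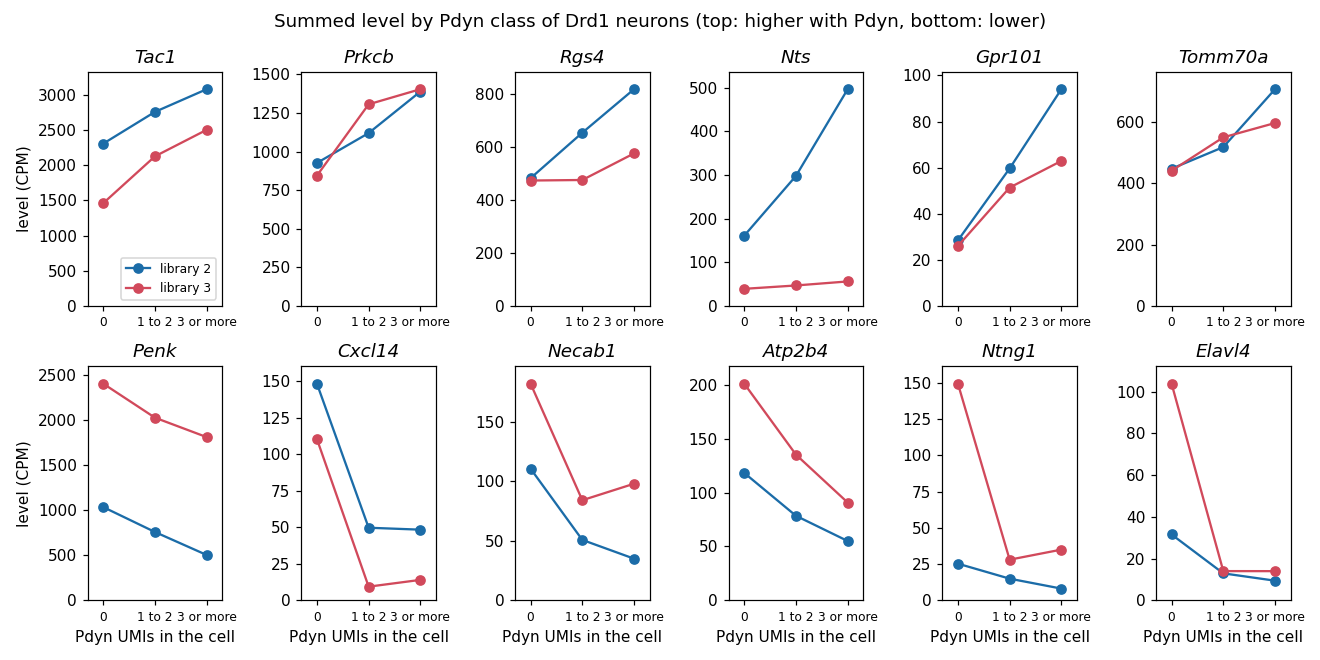
Summed level in CPM (vertical axes, linear from 0) of 6 genes higher and 6 genes lower in Pdyn-high Drd1 neurons, by the Pdyn UMIs of the cell (horizontal axes), with 1 point per library and class. The intermediate class lay between the other 2 in both libraries for Tac1, Prkcb, Rgs4, Nts, Gpr101, Tomm70a, Penk and Atp2b4, whereas Cxcl14, Necab1, Ntng1 and Elavl4 of library 3 were about as low or lower in it than in Pdyn-high cells.

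Since Pdyn and Tac1 are known targets of cyclic AMP signalling, the 250 bases before the annotated start of each called gene (RefSeq, GRCm38.p6) were searched for TGACG, the core of the cyclic AMP response element, on both strands, with the longer palindrome TGACGTCA containing it. A promoter entry was found for 6 of the 7 higher genes, for 21 of the 28 lower genes and for 5653 of the 7277 genes tested. TGACG was present in 4 of those 6, in 8 of those 21, and in 30.5% of all 5653. The 4 higher genes that hold it are shown here on their coding strand, with TGACG, or CGTCA where it lies on the other strand, in capitals.
Tac1, chr6:7554811-7555060, plus strand: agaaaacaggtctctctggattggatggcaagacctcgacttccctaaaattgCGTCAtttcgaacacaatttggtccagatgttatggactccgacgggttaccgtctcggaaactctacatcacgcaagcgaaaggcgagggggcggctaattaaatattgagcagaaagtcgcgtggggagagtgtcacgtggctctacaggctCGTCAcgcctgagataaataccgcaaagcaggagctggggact
Nts, chr10:102490419-102490668, minus strand: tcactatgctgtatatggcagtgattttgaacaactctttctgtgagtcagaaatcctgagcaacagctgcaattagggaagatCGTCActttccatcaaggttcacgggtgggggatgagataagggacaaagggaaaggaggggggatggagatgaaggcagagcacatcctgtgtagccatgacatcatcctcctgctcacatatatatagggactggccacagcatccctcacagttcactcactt
Rgs4, chr1:169747643-169747892, minus strand: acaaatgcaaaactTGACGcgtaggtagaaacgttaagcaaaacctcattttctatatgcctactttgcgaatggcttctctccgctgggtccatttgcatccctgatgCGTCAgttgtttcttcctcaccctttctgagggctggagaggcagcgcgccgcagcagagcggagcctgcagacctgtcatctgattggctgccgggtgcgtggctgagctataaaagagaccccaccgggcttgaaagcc
Gpr101, chrX:57503758-57504007, minus strand: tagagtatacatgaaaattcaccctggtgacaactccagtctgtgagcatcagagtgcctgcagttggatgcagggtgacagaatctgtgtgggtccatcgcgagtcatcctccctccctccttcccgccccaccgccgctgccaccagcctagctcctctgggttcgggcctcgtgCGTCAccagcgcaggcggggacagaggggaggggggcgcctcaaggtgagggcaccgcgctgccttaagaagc
Tac1 and Rgs4 held the motif 2 times each, and Nts and Gpr101 held it 1 time each. Prkcb, Tomm70a and Pdyn held it 0 times in this window, which for Pdyn is that of the first of 2 listed starts. The full palindrome TGACGTCA occurred in 3.34% of all promoters searched and, among the called genes, only in that of Sst, a lower gene. The AP-1 motif TGACTCA, in 2.49% of all promoters searched, occurred among the higher genes only in that of Nts. A match describes letters, not a bound site.

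Penk encodes the precursor of the enkephalins, opioid peptides typical of indirect-pathway neurons. It stood at 1034 CPM in Pdyn-negative and 502 CPM in Pdyn-high cells of library 2, and at 2402 and 1809.8 CPM in library 3. The level was higher in both arms of library 3 than in either arm of library 2, and in each library it was lower in Pdyn-high cells (log2 fold change -0.74 with an SE of 0.125 and an adjusted p from edgeR of 2.84e-06). The gate removed cells with Adora2a or Gpr6 UMIs but not cells with Penk. Drd2 or Penk UMIs were carried by 130 of 198 Pdyn-high and 141 of 205 Pdyn-negative cells of library 2. In library 3 they were carried by 40 of 64 and 28 of 47 cells. The share was thus slightly lower in Pdyn-high cells of library 2 and slightly higher in those of library 3, and Pdyn-high cells were deeper in both.

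Cxcl14, a chemokine gene that some neurons express, stood at 148 and 48.4 CPM in library 2 and at 110.4 and 14.0 CPM in library 3. The arms did not overlap, and the fall was the same way in both libraries (log2 fold change -1.84 with an SE of 0.266 and an adjusted p from edgeR of 5.27e-09). Necab1, which encodes a neuronal calcium-binding protein and was listed here as a patch gene, stood at 110.5 and 34.9 CPM in library 2 and at 182 and 97.8 CPM in library 3 (log2 fold change -1.34 with an SE of 0.253 and an adjusted p from edgeR of 6.93e-05). Again both Pdyn-high sums lay below both Pdyn-negative sums.

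Ntng1 encodes netrin-G1, a membrane-anchored adhesion protein of axons and synapses, and was listed as a Tshz1-type gene. It stood at 25.2 and 8.06 CPM in library 2 and at 149 and 34.9 CPM in library 3 (log2 fold change -1.92 with an SE of 0.419 and an adjusted p from edgeR of 0.00158). Elavl4, a neuronal RNA-binding protein gene, stood at 31.6 and 9.40 CPM in library 2 and at 104 and 14.0 CPM in library 3 (log2 fold change -2.23 with an SE of 0.487 and an adjusted p from edgeR of 0.00158). Both genes are sparse, with 16 and 20 UMIs in the library 2 Pdyn-negative sums, and both were several times higher in the Pdyn-negative cells of library 3 than in those of library 2.

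A pair of genes for calcium extrusion fell: Atp2b4, a plasma membrane calcium pump, and Slc24a2, a potassium-dependent sodium-calcium exchanger. They were named after their values were seen. Atp2b4 stood at 118 and 55.1 CPM in library 2 and at 201 and 90.8 CPM in library 3 (log2 fold change -1.13 with an SE of 0.242 and an adjusted p from edgeR of 0.00118). Slc24a2 stood at 142 and 83.3 CPM in library 2 and at 299 and 143 CPM in library 3 (log2 fold change -0.90 with an SE of 0.218 and an adjusted p from edgeR of 0.0109). Fam163b stood at 36.3 and 6.72 CPM in library 2 and at 64.9 and 24.5 CPM in library 3 (log2 fold change -1.94, edgeR adjusted p = 0.0230). The falls of Atp2b4 were nearly equal in the libraries, at -1.09 and -1.14 on the log2 scale with 1 CPM added.

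Gnas, the gene of the stimulatory G-protein alpha subunit, stood at 215 and 88.7 CPM in library 2 and at 149 and 119 CPM in library 3 (log2 fold change -1.02 with an SE of 0.217 and an adjusted p from edgeR of 0.00109). Its locus produces several overlapping transcripts, among which the authors' counting could divide or drop reads, so its level is uncertain. The striatal counterpart Gnal, which carries D1 receptor signalling in spiny neurons, stood at 628 and 720.1 CPM in library 2 and at 876 and 828 CPM in library 3 (log2 fold change 0.07, edgeR adjusted p = 0.992) and did not pass.

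**Figure D2:**
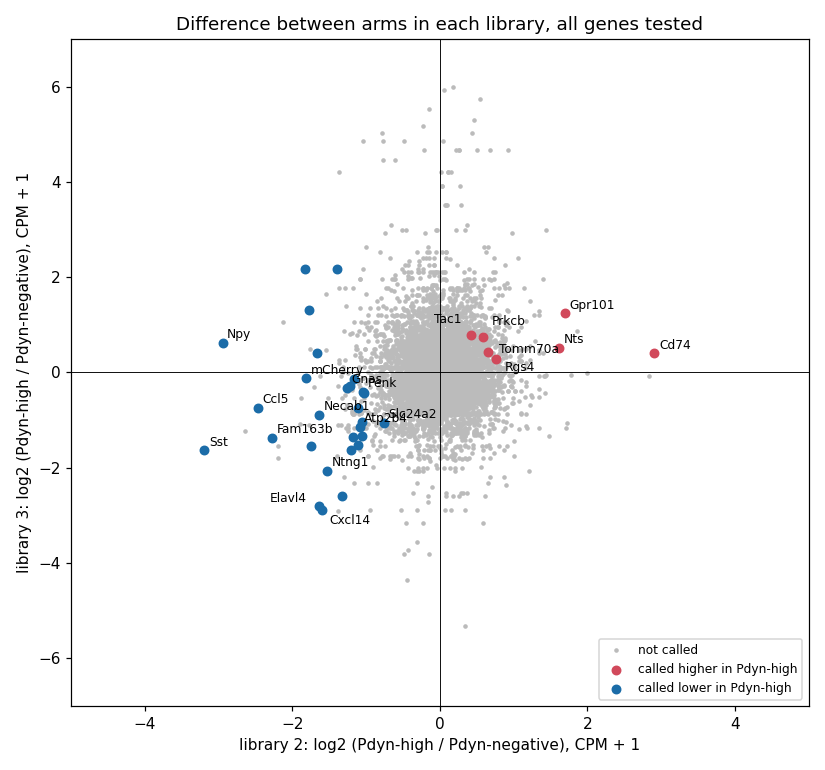
Each point is 1 of 7277 genes tested, placed by its log2 ratio of Pdyn-high to Pdyn-negative CPM, with 1 CPM added, in library 2 (horizontal) and library 3 (vertical), with genes called higher in red and lower in blue. Tac1, Prkcb, Rgs4, Nts, Gpr101 and Tomm70a lie above 0 on both axes and Penk, Cxcl14, Necab1, Ntng1 and Elavl4 below 0 on both, whereas Npy lies below 0 in library 2 and above 0 in library 3.

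The remaining lower genes are mainly known from other cell types or from the construct. They were the interneuron peptides Sst and Npy, the vascular genes Ly6c1, Ly6a, Cldn5, Sparc and Itm2a, the phagocyte genes C1qa, C1qb, C1qc, Tyrobp, Lyz2 and Cebpb, the immune genes Ccl5, H2-K1, Ifitm3, AW112010 and Crip1, and the construct's mCherry. In 17 of the 28 lower genes, over 20% of the library 2 Pdyn-negative UMIs came from 1 cell. Sst stood at 759 and 81.9 CPM in library 2, with 231 of 481 Pdyn-negative UMIs in 1 cell, and at 13.0 and 3.49 CPM in library 3. Of the mCherry UMIs in the library 2 Pdyn-negative sum, 719 of 874 lay in 1 cell, and its difference changed sign in 4 alternatives.

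The summed level of 10 interneuron markers was 1414 CPM in Pdyn-negative and 169 CPM in Pdyn-high cells of library 2, and 19.5 and 28.0 CPM in library 3. In library 2, 4 Pdyn-negative cells and 0 Pdyn-high cells drew 1% or more of their UMIs from these markers. For 9 microglia markers the sums were 751 and 529 CPM in library 2 and 162 and 119 CPM in library 3. For 9 vascular markers they were 401 and 141 CPM and, the other way, 26.0 and 73.4 CPM. Astrocyte markers differed little, at 669 and 606 CPM in library 2 and 409 and 391 CPM in library 3, and oligodendrocyte markers were higher in Pdyn-high cells of library 2 and lower in those of library 3. Glutamatergic and oligodendrocyte precursor markers each summed to 48.4 CPM or less in both arms of libraries 2 and 3.

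The comparison was repeated without the cells that drew 1% or more of their UMIs from 1 of those other-type marker lists, a setting added after the data were seen. It passed 19 genes, 5 higher and 14 lower, and 18 of these were among the 35. Tac1, Prkcb, Rgs4, Nts and Gpr101 remained higher, and Penk, Cxcl14, Necab1, Ntng1, Elavl4, Atp2b4, Slc24a2 and Fam163b remained lower. The setting removes cells by those marker lists, so the loss of the markers themselves is no result; of the 35 genes 27 were tested, and Sst, Npy and Cd74 were not. Gnas (-0.76, edgeR adjusted p = 0.129) and Tomm70a (0.51, edgeR adjusted p = 0.0851) no longer passed. Without those cells the mCherry, Ccl5, Crip1, AW112010 and Ifitm3 differences still passed.

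**Figure D3:**
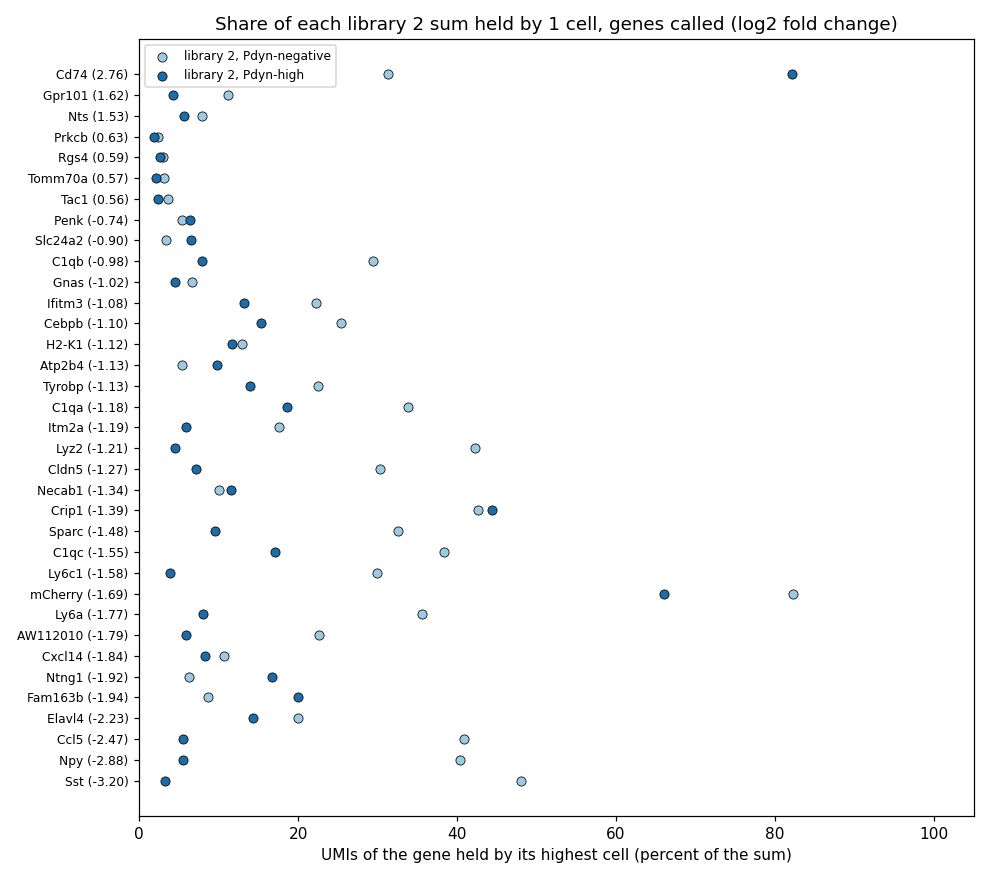
For each of the 35 genes called (rows, with the log2 fold change), the horizontal axis gives the percent of its library 2 UMIs held by the cell with the most, in Pdyn-negative (light) and Pdyn-high (dark) sums. The neuronal genes Tac1, Prkcb, Rgs4, Penk and Slc24a2 lie under 10% in both arms, while 1 cell held 82.3% of the mCherry and 48.0% of the Sst Pdyn-negative UMIs and 82.2% of the Cd74 Pdyn-high UMIs.

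Depth differs between the arms, so it was varied. With cells of the arms paired within 5% of each other's UMIs in a library (154 pairs in library 2 and 32 in library 3, added after the data were seen), 3 genes passed, Sst, Npy and Penk. The log2 fold changes in the pairs stood beside those of all arm cells as follows: Tac1 was 0.41 against 0.56, Prkcb 0.74 against 0.63, Nts 1.53 against 1.53, Cxcl14 -1.74 against -1.84, and Penk -0.95 against -0.74. With every cell thinned to 2000 UMIs, 7 genes passed, namely Sst, Npy, Nts, Cxcl14, Ly6a, C1qc and mCherry. With the highest cell of each sum left out gene by gene, 4 genes passed, namely Sst, Npy, Nts and Cxcl14. Tac1, Prkcb, Rgs4, Nts, Tomm70a, Cxcl14, Atp2b4, Slc24a2 and Gnas kept their sign in all 24 alternatives tried, and Penk, Necab1 and Gpr101 in all 23 in which they could be fitted. The alternatives reuse largely the same cells, and leaving out library 1 repeats the main fit, so kept signs are not independent support. Of 22 alternatives with a test, Nts passed in 15, Cxcl14 in 14, Tac1 in 10, and Prkcb and Rgs4 in 9. Atp2b4 passed in 8, and Tomm70a, Slc24a2 and Gnas in 7. Of 21, Penk passed in 10 and Necab1 and Gpr101 in 9.

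The lists for striatal compartments were then read against the background of all genes tested, whose median log2 fold change was -0.01, with 26.4% higher in CPM in both libraries and 24.9% lower in both. The low-count filter keeps a gene with enough UMIs in part of the sums, which favours genes high in 1 arm or library, so counts over the tested members describe the list and are not support for it. Sums also cannot tell more cells with a transcript from more transcript per cell.

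Of 13 patch genes, 8 were tested, 1 (Tac1) was higher and 1 (Necab1) lower, and the median was 0.22. Tac1 and Necab1 thus went opposite ways although both were listed for the patch. Rasgrp1, a Ras activator enriched in patches, stood at 560.2 and 724 CPM in library 2 and at 695 and 821 CPM in library 3 (log2 fold change 0.31, edgeR adjusted p = 0.650). Lypd1 differed by 0.44 (adjusted p = 0.684) with opposite signs in the libraries, and Spon1 by -1.05 (adjusted p = 0.704). The patch-defining mu opioid receptor gene Oprm1 had 0 and 1 UMIs in the library 2 sums and none in library 3. It stood at 2.98 CPM or less in every Drd1 class and every other group of cells summed in libraries 2 and 3. Like Drd2 and Chrm4, it could thus not serve as a marker. Kremen1, Sema5b, Bach2 and Kcnip1 were also too low to test.

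All 9 matrix genes were tested and 0 passed in edgeR (3 at an unadjusted p under 0.05, all higher), with a median of 0.15. The largest differences were those of Cdh8 (0.74, edgeR adjusted p = 0.745), Sv2b (0.60, 0.354) and Brinp3 (-0.49, 0.916). Calb1, the calbindin gene that marks the matrix, stood at 507 and 705 CPM in library 2 and at 389.6 and 440.2 CPM in library 3 (0.37, adjusted p = 0.523). On the CPM scale with 1 CPM added, the median log2 ratio of the patch genes was 0.18 in library 2 and -0.20 in library 3. That of the matrix genes was 0.14 and 0.18, against 0.00 and 0.02 for all genes. The patch median thus changed sign between the libraries, while most single patch genes did not. Of the 8 tested, 4 (50%, against 26.4% of all genes tested) were higher in CPM in both libraries and 3 (37.5%, against 24.9%) lower in both.

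Of 12 shell genes, 7 were tested and 1, Nts, was higher, with a median of 0.45. Wfs1, an endoplasmic reticulum protein gene, stood at 555 and 785 CPM in library 2 and at 403 and 615 CPM in library 3, and lay just outside the threshold (0.52, SE 0.144, edgeR adjusted p = 0.0561). Dlk1 (0.80, adjusted p = 0.212) and Cartpt (0.45, adjusted p = 0.585), the precursor of the CART peptide, were higher in both libraries without passing. Synpr, listed for the shell as well, was lower in both (-0.54, adjusted p = 0.173). Calcr, Tac2, Stard5, Ndnf and Serpinb2 were not tested.

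Of 10 core and dorsal striatum genes, 9 were tested and 0 passed edgeR's adjusted p (3 at an unadjusted p under 0.05, all higher), with a median of 0.27. Coch (0.89, adjusted p = 0.892), Reln (0.76, adjusted p = 0.400) and the cannabinoid receptor gene Cnr1 (0.63, adjusted p = 0.598) had the largest differences. Nts was thus the only member of the shell and core lists that passed.

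Of 11 Tshz1-type genes, 6 were tested and 1, Ntng1, passed. All 6 had a negative log2 fold change, with a median of -0.57, against 3733 negative of all 7277 genes tested. The transcription factor gene Tshz1 stood at 134 and 116 CPM in library 2 and at 617 and 332 CPM in library 3 (-0.58, SE 0.186, edgeR adjusted p = 0.183). Its difference was small in library 2 and larger in library 3, where the level itself was several times higher. With Pdyn of 5 or more as the upper arm the Tshz1 difference was no longer negative, at 0.04 (edgeR adjusted p = 0.999). The protocadherin gene Pcdh8 stood at 20.5 and 8.06 CPM in library 2 and at 90.9 and 41.9 CPM in library 3 (-1.20, adjusted p = 0.476). Foxp2 (-0.29), Col11a1 (-0.57) and Otof (-0.35) did not pass either, and Casz1, not tested, had 12 UMIs in Pdyn-negative and 0 in Pdyn-high cells of library 2 and 4 in each arm of library 3.

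When the cells with any UMI of Tshz1, Pcdh8, Otof or Casz1 were left out, 130 Pdyn-high and 132 Pdyn-negative cells remained in library 2 and 31 and 16 in library 3. Of 5661 genes tested 0 passed in edgeR, 80 having an unadjusted p under 0.05, and all 28 of the 35 genes that were tested kept their sign. These cells are part of those by which the 35 genes were called, so the kept signs are not independent support. Among the cells left, the log2 fold change was 1.30 for Tac1 (SE 0.544), 1.81 for Nts (SE 0.453) and 0.44 for Prkcb (SE 0.321). It was -0.53 for Penk (SE 0.610) and -1.07 for Cxcl14 (SE 0.377).

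**Figure D4:**
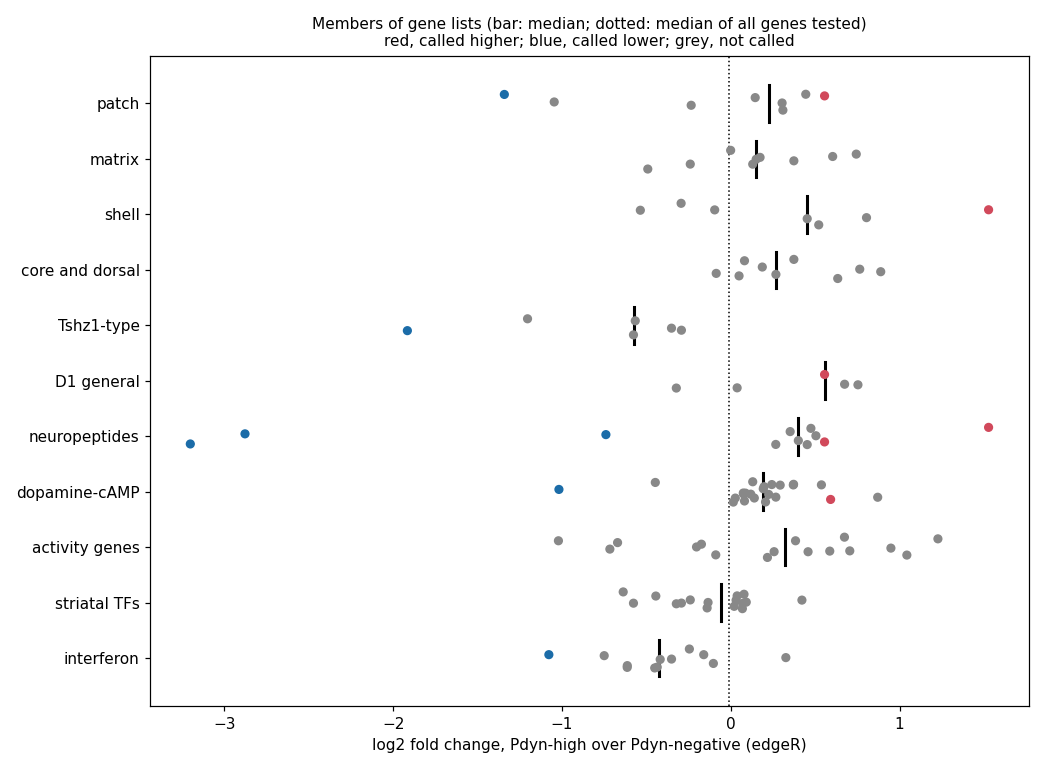
Log2 fold change of Pdyn-high over Pdyn-negative cells (horizontal axis) for every tested member of 11 gene lists, with the median of each list as a black bar and that of all genes as a dotted line. The 6 Tshz1-type genes all lie below 0 (median -0.57), whereas patch, matrix, shell and core genes lie on both sides, and red and blue points are the members called higher or lower.

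Among 5 tested genes of D1 neurons in general, only Tac1 passed, and the median was 0.56. Slc35d3, which affects D1 receptor trafficking, stood at 78.9 and 159.9 CPM in library 2 and at 129.8 and 147 CPM in library 3 (0.75, edgeR adjusted p = 0.134). Isl1, a transcription factor of D1 neurons, stood at 78.9 and 61.8 CPM in library 2 and at 32.5 and 31.4 CPM in library 3 (-0.32, adjusted p = 0.954). Of the D2 list only Penk was tested, and it fell.

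Of 20 neuropeptide and granin genes, 11 were tested, 2 (Tac1 and Nts) were higher and 3 (Penk, Sst and Npy) lower, with a median of 0.40. The granins, proteins of dense-core vesicles, did not pass: Scg2 stood at 536 and 641 CPM in library 2 and at 208 and 468 CPM in library 3 (0.47, edgeR adjusted p = 0.179), and Vgf (0.40), Chga (0.35) and Chgb (0.27) were smaller. None of the 8 tested peptide-processing genes passed (1 at an unadjusted p under 0.05, lower), and their median was -0.14. Pcsk2, the convertase that cleaves prodynorphin, stood at 281 and 262 CPM in library 2 and at 448 and 433 CPM in library 3.

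Oprk1, the kappa receptor that dynorphin binds, stood at 72.6 and 134 CPM in library 2 and at 110.4 and 182 CPM in library 3. The Pdyn-high sums of both libraries lay above both Pdyn-negative sums, but the difference missed the threshold (0.82, SE 0.236, edgeR adjusted p = 0.0802). Oprl1, the nociceptin receptor, went opposite ways in the libraries (-0.36, adjusted p = 0.979).

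Of 26 genes of dopamine and cyclic AMP signalling, 23 were tested, and 1 (Rgs4) rose and 1 (Gnas) fell. The other 21 did not pass, and the median was 0.19. Of the 23, 21 had a positive log2 fold change, against 3544 of all 7277 genes tested. In CPM, 13 of the 23 were higher in both libraries (56.5%, against 26.4% of all genes tested). Among those that did not pass, the phosphodiesterase gene Pde1c (0.87, edgeR adjusted p = 0.113) and the transcription factor gene Creb1 (0.54, 0.837) had the largest differences. Ppp1r1b, the gene of the dopamine-regulated phosphatase inhibitor DARPP-32, stood at 1279.7 and 1523 CPM in library 2 and at 1753 and 1949.5 CPM in library 3 (0.20, adjusted p = 0.873).

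None of the 16 tested activity genes passed in edgeR (6 higher and 3 lower at an unadjusted p under 0.05), and their median was 0.32. Fos, the classical immediate-early gene, stood at 85.2 and 45.7 CPM in library 2 and at 104 and 41.9 CPM in library 3, lower in both without passing (-1.02, SE 0.283, edgeR adjusted p = 0.0561). Homer1, a synaptic scaffold gene induced by activity, stood at 257 and 392 CPM in library 2 and at 292 and 437 CPM in library 3 (0.59, adjusted p = 0.0699). Fosl2 (1.23, adjusted p = 0.196) was also above 0 and Jun (-0.67, adjusted p = 0.712) below it.

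No member passed of 16 tested striatal transcription factor genes (median -0.06, 3 lower at an unadjusted p under 0.05), 14 glutamate receptor genes (median 0.14, 2 higher) and 10 GABA receptor genes (median 0.17, 2 higher and 1 lower). Bcl11b, a defining regulator of spiny neurons, stood at 719.5 and 735 CPM in library 2 and at 838 and 971 CPM in library 3. The largest receptor differences were those of the kainate receptor gene Grik2 (0.78, edgeR adjusted p = 0.146) and of the GABA receptor gene Gabra3 (-1.18, adjusted p = 0.372). Of 12 tested interferon-induced genes 1, Ifitm3, fell, with a median of -0.43. Their median log2 ratio with 1 CPM added was -0.54 in library 2 and 0.06 in library 3, so the lower median was that of library 2. The 7 heat shock genes tested had a median of -0.07 and none passed (1 lower at an unadjusted p under 0.05).

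FLiCRE construct UMIs were found in 146 of 198 Pdyn-high and 114 of 205 Pdyn-negative cells of library 2, and in 48 of 64 and 33 of 47 of library 3. Without the construct-bearing cells, 52 and 91 cells of library 2 and 16 and 14 of library 3 remained, and 10 genes passed. Among those cells Tac1 (0.79), Nts (2.05), Prkcb (0.85), Rgs4 (0.97) and Tomm70a (0.92) were higher with edgeR adjusted p from 1.90e-08 to 0.0205. Penk stood at -0.24 there and did not pass (edgeR adjusted p = 0.999). The part of construct content in the Penk difference was not tested further.

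The intermediate cells, with 1 or 2 Pdyn UMIs, were compared with the same Pdyn-negative sums, so that comparison shares its control cells with the main one and its values are only set beside it. Of 7076 genes tested 31 passed (0.438%), 5 higher (0.0707%) and 26 lower (0.367%). The 5 higher genes were Nts (0.84, edgeR adjusted p = 0.00255), Tac1 (0.35, 0.0449), Wfs1 (0.61, 0.000412), Slc35d3 (0.81, 0.0352) and Galnt13 (1.10, 0.0246). The largest falls were those of mCherry (-3.19), Igfbp7 (-2.05), Ly6c1 (-2.03) and Ly6a (-1.81), the construct's reporter and genes known from vascular cells, and C1qa, C1qc, Lyz2, Ccl5, Cldn5 and Npy were lower too. The neuronal genes among the 26 included Cxcl14 (-1.76), Elavl4 (-1.76), Necab1 (-1.12) and Gnas (-0.75). Penk, at 757 CPM in library 2 and 2025 CPM in library 3, differed from Pdyn-negative by -0.36 (edgeR adjusted p = 0.0562) in these cells.

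Cells that the UMI window had left out, with 1000 to under 2000 UMIs, were read with a lower Pdyn minimum of 2 UMIs. They gave 16, 49 and 15 Pdyn-positive and 56, 205 and 30 Pdyn-negative cells in libraries 1, 2 and 3, so all 3 libraries entered this comparison. Of 1331 genes tested 6 passed (0.451%): the construct genes tTA (1.49) and TEV (1.03) were higher (0.15% of the genes tested), and 4 were lower (0.301%), among them Ctsd (-1.42), Bsg (-1.12) and Apoe (-0.89), known from glia or from most cells. The construct genes were not higher in every library: tTA stood at 153 and 1320.5, 156 and 501, and 464 and 263 CPM in Pdyn-negative and Pdyn-positive cells of libraries 1, 2 and 3, and TEV at 332 and 1238, 257 and 684, and 839 and 745 CPM. Bsg was likewise lower in libraries 1 and 2 and higher in library 3 (353 and 526 CPM). The lower genes included no neuronal gene of the main comparison. Without library 1 or without library 2, 0 genes passed in edgeR (69 and 27 at an unadjusted p under 0.05), and 12 passed without library 3.

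In these shallow cells Penk differed by -0.92 (edgeR adjusted p = 0.0761), Prkcb by 0.53 (0.320), Tomm70a by 0.78 (0.234) and Tac1 by 0.21 (0.836), each with the sign of the main comparison and none passing. Penk stood at 383 and 124 CPM in Pdyn-negative and Pdyn-positive cells of library 1, 974 and 549.6 CPM in library 2, and 1171 and 789 CPM in library 3. Tac1 stood at 1852 and 1939, 2032 and 2345, and 928 and 1666 CPM. Other main genes did not keep their direction in every library. Rgs4 stood at 524 and 495, 300 and 415, and 398 and 351 CPM. Gpr101 stood at 25.5 and 0, 42.3 and 159, and 22.1 and 0 CPM. Cxcl14 stood at 0 and 0, 440 and 48.9, and 22.1 and 43.8 CPM. Nts was too low to be tested there, at 12.8 and 165, 42.3 and 305, and 44.2 and 43.8 CPM in libraries 1, 2 and 3.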

How the data were processed

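Raw UMI counts per gene and cell, as deposited, were used. Per the submitters' processing notes the authors used Cell Ranger 3.0 and mm10, and per the labels' protocols the 10x Genomics 3' v2 kit; the matrix header names version 3.0.0. The matrix had 28001 features and 11625 cells. Counts of the gated cells were summed per library (barcode suffix) and Pdyn class, requiring 5 cells per class and library. The 7 genes of the rule and 13 mitochondrial genes stayed in library sizes but were not tested.

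The sums were tested with edgeR 4.0.16 (R 4.3.3): TMM, filterByExpr, glmQLFit (robust, legacy off), glmQLFTest, library as block, Benjamini-Hochberg at 0.05. Library was a block because the cells of the arms were captured together in 1 library. The script was tested on simulated data. Each standard error was derived from the F statistic and the size of the log2 difference. Alternatives covered DESeq2 1.42.0, RLE scaling, filter, prior, block, left-out libraries, depth, the Pdyn and Drd1 minimums and left-out cell classes.

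The text names up to 12 higher and 12 lower genes by largest log2 fold change with the same direction in both libraries, passing members of the compartment lists, and examples of other lists; Npy, Ly6c1, C1qc, AW112010, Crip1, Itm2a, C1qa, C1qb, Tyrobp, H2-K1, Cebpb, Penk, Gnas, Atp2b4, Slc24a2, Galnt13 and Igfbp7, outside that rule or below its rank, were named after their values were seen. The members and lists were chosen with earlier results of these data known. Doublets were kept in the main comparison and removed in an alternative (Scrublet in scanpy 1.11.5, 0.8% per 1000 cells), which took out 13 Pdyn-high and 8 Pdyn-negative cells of library 2. A gene that passed in the shallow cells is not reported here.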

Additional observations from a re-analysis of the deposited data

How the results depend on the processing

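The comparison of Pdyn-high with Pdyn-negative cells passed 35 genes; under alternatives, 1 passed in DESeq2, 2 without a low-count filter, 7 with cells thinned to 2000 UMIs, 7 when the thinned counts also set the Pdyn classes, 10 with Pdyn of 5 or more, 2 with Drd1 of 2 or more, 4 without cells holding Drd2 or Penk, 0 without Tshz1-type cells, 10 without construct-bearing cells and 4 without interferon-positive cells. Among alternatives added after seeing the data, 3 passed in pairs within 5% of UMIs, 2 in a window from 1000 UMIs with Pdyn of 2 or more, 4 with the highest cell per gene left out and 19 without cells carrying other-type markers. Between 34 and 46 passed with RLE size factors, the default prior, Pdyn of 2 or more, doublets left out, rule genes out of library sizes and the planned UMI matching, which left medians of 2848 and 3529.5 UMIs in the arms of library 2 and 2795 and 3751 in library 3. Only 1 residual degree of freedom stood behind the main fit, and the cause of the lower counts was not tested.

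Without the replicate block, 0 genes passed in edgeR in the main comparison, 0 with the intermediate cells and 0 in the shallow cells (93, 38 and 20 at an unadjusted p under 0.05). The intermediate comparison passed 0 genes in DESeq2 and 1 without a filter, and the shallow one 0 in both. Leaving out library 1 gave 35 and 31 genes, unchanged because library 1 entered neither fit; without library 2 or 3 a single library was left, which gives values and no test. In the shallow cells leaving out 1 library gave 0 to 12 genes. The comparison of cells over 8000 UMIs could not be fitted, with under 5 Pdyn-negative cells per library.

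The mCherry difference turned to 0.18 with Drd1 of 2 or more, 0.66 without interferon-positive cells, 0.68 in pairs and 0.14 in the window from 1000 UMIs, and Ly6c1 to 0.10 with Drd1 of 2 or more. Across 714 gene values under alternatives, 302 tested values kept side and direction, 354 kept direction only and 5 reversed, and of the untested values from a single library 45 moved by less than the spread between libraries and 8 by more.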

Other observations

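Drd1 cells over 8000 UMIs, outside the window, numbered 3 Pdyn-negative and 7 Pdyn-high in library 2 and 4 and 6 in library 3, too few for a test. These few Pdyn-negative cells carried much RNA known from other cell types. The phagocyte gene Lyz2 stood at 2839 and 95.8 CPM in library 2 and at 4159 and 0 CPM in library 3. The spiny neuron gene Ppp1r1b stood at 366 and 1836 CPM in library 2 and at 272 and 2145 CPM in library 3. The part of such content in the differences that follow was not tested. Tac1 stood at 366 and 3401 CPM in library 2 and at 1305 and 2763 CPM in library 3, in both higher in the Pdyn-high cells. Prkcb stood at 611 and 1069.8 CPM in library 2 and at 299 and 873 CPM in library 3. Penk, lower in the main comparison, was higher in these Pdyn-high cells, at 91.6 and 208 CPM in library 2 and at 27.2 and 291 CPM in library 3, from 1 to 16 UMIs per sum. Nts went opposite ways, at 153 and 431 CPM in library 2 and at 408 and 182 CPM in library 3.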
